A study of Mus musculus with 4 samples.

Results

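T-box transcription factors bind DNA through the T-box domain, first known from Brachyury, and either activate or repress the genes they bind. In the mouse heart, TBX5 and TBX20 work with GATA and NKX factors on genes of heart muscle, while TBX2 and TBX3 repress the working-muscle program in the atrioventricular canal and the conduction system. TBX18 acts in the epicardium, the sinus node and cells of vessel walls, TBX1 in the pharyngeal heart progenitors, TBX4 in hindlimb and lung mesenchyme, and TBX15 in skeletal muscle and skeleton. H3K27ac, an acetylation of a lysine of histone H3, marks active promoters and enhancers. The genes described are the 8 T-box members Tbx1, Tbx2, Tbx3, Tbx4, Tbx5, Tbx15, Tbx18 and Tbx20, chosen by name, with every H3K27ac peak that reaches within 50 kb of either end of a gene. They are 8 of 21938 protein-coding genes, and their windows held 35 of the 63061 peaks of the replicated list, 8 of these in the windows of both Tbx2 and Tbx4.

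The tissue was heart of female B6CASTF1/J mice, the F1 strain bred from C57BL/6J and CAST/EiJ, at an age of 2 months. The 4 libraries form 1 untreated group: biological replicates 1 and 2 each combine 2 heart samples, 2 libraries were made of each pool as technical replicates, and the labels give both pools the same donor identifier, so the spread between them may be technical. The authors joined the technical replicates before calling peaks, so values exist per pool and not per library, and the read depth is unknown. With 1 list per pool and 1 tissue, the values below are descriptions without a test.

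Heart tissue was checked by promoter peaks, defined as peaks within 1 kb of an annotated transcription start of a gene. They were present at 6 of 6 cardiomyocyte, 4 of 4 endothelial, 4 of 4 fibroblast, 3 of 4 pericyte and smooth muscle and 2 of 4 epicardial and mesothelial marker genes (Tcf21, Wt1; not Upk3b, Msln). None was found at 4 conduction, 3 macrophage, 3 liver and 3 brain marker genes. The replicate 2 list alone held promoter peaks at 3 more markers, Hcn4 (conduction), Cd68 (macrophage) and Myh11 (smooth muscle). In whole tissue, acetylation in a small share of cells and weak acetylation in many cells cannot be told apart.

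Promoter sequences were printed where the RefSeq table for GRCm38.p6 holds them, to show what lies at an acetylated start and at a start without a peak. Each runs 5′ to 3′ on the strand of the gene, from 250 bases before to 50 bases after a start, with CG dinucleotides in capitals. The table holds 4 of the 8 members. Tbx20 (chr9:24774254-24774553, minus strand) lies inside the widest peak of the group. Most of the Tbx18 window (chr9:87731211-87731510, minus strand) lies between a pair of peaks. The outermost Tbx1 start (chr16:18590622-18590921, minus strand) and an internal Tbx4 start (chr11:85896515-85896814, plus strand) have no peak.
Tbx20 promoter: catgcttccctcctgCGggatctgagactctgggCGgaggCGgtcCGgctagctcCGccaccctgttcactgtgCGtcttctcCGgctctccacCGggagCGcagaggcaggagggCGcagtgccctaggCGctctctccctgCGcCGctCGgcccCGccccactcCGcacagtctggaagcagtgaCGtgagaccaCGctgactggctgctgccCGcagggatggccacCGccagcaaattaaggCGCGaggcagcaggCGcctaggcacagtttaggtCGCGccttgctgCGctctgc
Tbx18 promoter: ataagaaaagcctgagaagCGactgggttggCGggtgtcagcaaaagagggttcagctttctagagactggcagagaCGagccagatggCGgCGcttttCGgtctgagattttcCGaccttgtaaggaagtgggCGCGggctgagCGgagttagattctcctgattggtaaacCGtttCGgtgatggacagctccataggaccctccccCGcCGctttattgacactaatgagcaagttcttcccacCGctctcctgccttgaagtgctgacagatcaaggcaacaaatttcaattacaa
Tbx1 promoter: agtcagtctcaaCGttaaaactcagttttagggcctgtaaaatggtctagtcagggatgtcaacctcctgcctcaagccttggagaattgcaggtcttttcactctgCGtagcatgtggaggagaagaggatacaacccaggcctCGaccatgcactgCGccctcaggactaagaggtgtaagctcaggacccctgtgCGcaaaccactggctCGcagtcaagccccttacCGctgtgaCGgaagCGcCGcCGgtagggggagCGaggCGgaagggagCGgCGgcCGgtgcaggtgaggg
Tbx4 promoter: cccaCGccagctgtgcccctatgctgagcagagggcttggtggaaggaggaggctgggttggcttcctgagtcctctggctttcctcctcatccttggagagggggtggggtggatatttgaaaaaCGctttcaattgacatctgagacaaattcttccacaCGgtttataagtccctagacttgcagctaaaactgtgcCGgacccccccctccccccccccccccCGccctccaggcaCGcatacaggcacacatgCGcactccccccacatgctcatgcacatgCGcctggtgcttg
The Tbx20 sequence holds 26 CG dinucleotides at 68.3% GC, the Tbx18 sequence 15 at 51.7%, the Tbx1 sequence 16 at 58.3% and the Tbx4 sequence 8 at 59.0%. Relative to the number that base composition gives, CG was present at 0.745 (Tbx20), 0.755 (Tbx18), 0.633 (Tbx1) and 0.314 (Tbx4), against a median of 0.384 over 32851 promoters. A second Tbx1 start in the table had 26 CG dinucleotides at 69.0% GC and a ratio of 0.729. Both Tbx1 starts, without a peak, were richer in GC than the Tbx18 start, but their ratios were lower.

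Promoter peaks divided the members into 5 with and 3 without. Tbx2, Tbx3, Tbx5, Tbx18 and Tbx20 had a promoter peak in the replicated list, and Tbx1, Tbx4 and Tbx15 had none. Over all protein-coding genes the share was 56.8%, so 5 of 8 (62.5%) is near the background. The same 5 members had a peak at the outermost start of the gene, where the background was 53.3%, and in both single-replicate lists, where it was 55.0%. At least 1 peak lay anywhere in the window of 7 of 8 members, against 78.4% of all genes.

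What varied among the members was the extent of acetylation. Acetylated length is the sequence covered by peaks in the window of the gene. It was 17.2 kb for Tbx20, 12.2 kb for Tbx2, 10.4 kb for Tbx5, 8.34 kb for Tbx4, 6.90 kb for Tbx3, 3.60 kb for Tbx18, 1.79 kb for Tbx1 and 0 kb for Tbx15. The median of the members was 7.62 kb and that of all protein-coding genes 4.32 kb. The upper quartile over all genes was 10.6 kb and the ninth decile 18.4 kb, so Tbx20 and Tbx2 stood above that quartile, at percentiles 88.3 and 79.5, and no member reached the ninth decile. Tbx5 was at percentile 74.6 in the replicated list, but above the quartile in replicate 2 (80.8), in replicate 1 (75.3) and in the pooled list (76.3). All of the length of Tbx4 lies at Tbx2 and is 0 kb with flanks of 25 kb. The windows differ in size with the gene, from 109 kb for Tbx2 to 214 kb for Tbx15. As a share of the window, Tbx2 (11.1%, percentile 84.5) and Tbx20 (11.0%, percentile 84.3) came first, ahead of Tbx5 (6.84%), Tbx4 (6.43%), Tbx3 (6.05%), Tbx18 (2.80%) and Tbx1 (1.63%).

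**Figure D1:**
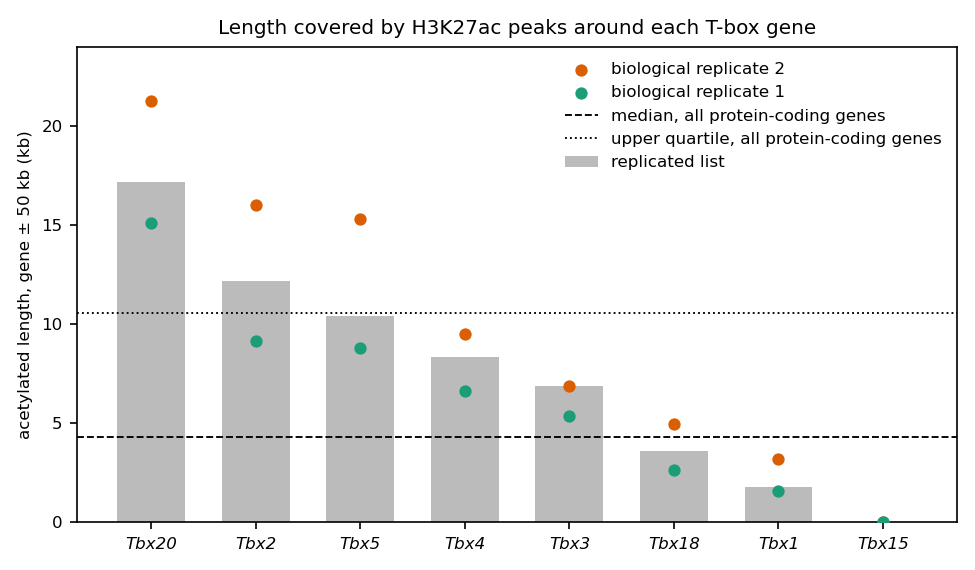
Acetylated length around each T-box gene, in kb. Bars show the replicated list, points the lists of biological replicates 2 and 1 and lines the median (4.32 kb) and upper quartile (10.6 kb) of all protein-coding genes; Tbx15 is at 0 in every list.

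In the list of replicate 2 the lengths were 21.2 kb (Tbx20), 16.0 kb (Tbx2), 15.3 kb (Tbx5), 9.50 kb (Tbx4), 6.87 kb (Tbx3), 4.95 kb (Tbx18) and 3.22 kb (Tbx1). In the list of replicate 1 they were 15.1 kb (Tbx20), 9.14 kb (Tbx2), 8.79 kb (Tbx5), 6.62 kb (Tbx4), 5.39 kb (Tbx3), 2.67 kb (Tbx18) and 1.60 kb (Tbx1). The order of the members was the same in both lists. Replicate 2 covered more at each of the 7 members with a peak, by a ratio from 1.27 (Tbx3) to 2.02 (Tbx1), and over the genome by a ratio of 1.49. Some neighbours in this order lay close together. Tbx2 was above Tbx5 in both lists, at 16.0 against 15.3 kb in replicate 2 and 9.14 against 8.79 kb in replicate 1. The SD over both pools was 4.86 kb for Tbx2 and 4.62 kb for Tbx5. Both genes were covered more in replicate 2, so these SDs do not measure the spread of their difference.

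**Figure D2:**
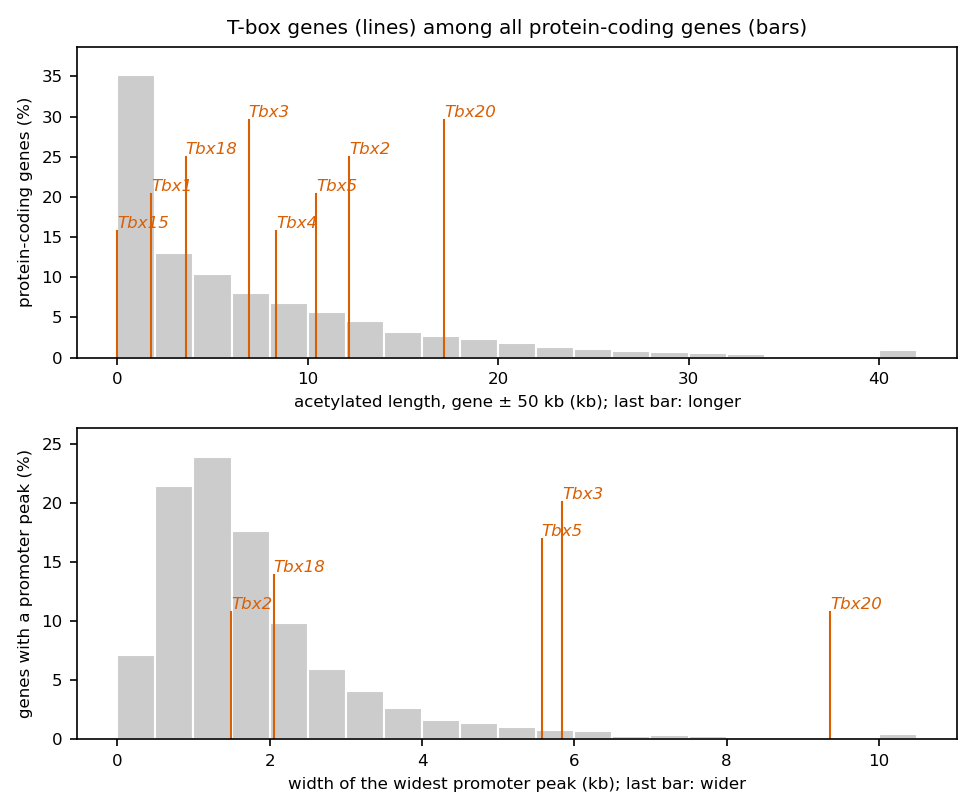
Percent of protein-coding genes (bars) by acetylated length in kb (upper panel) and, among genes with a promoter peak, by width of the widest promoter peak in kb (lower panel), with the T-box genes as lines. Tbx20 (9.36 kb), Tbx3 (5.84 kb) and Tbx5 (5.57 kb) lie in the upper tail of promoter peak width. The value of Tbx5 is that of an internal start, and the peak at its outermost start was 2.93 kb wide.

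Among the activators of the heart muscle program, Tbx20 had the widest acetylated start. The gene lies on chromosome 9 from 24718138 to 24774303 (mm10, minus strand), and 1 peak of 9.36 kb (chr9:24766228-24775583) covered its start. Distances below count from the outermost start of the gene, negative before it. This peak stood at percentile 99.5 of promoter peak widths but at percentile 65.0 of their fold (16.3), the authors' ratio for the peak. In replicate 2 it was 9.98 kb wide, and in replicate 1 it was present as peaks of 8.07 and 1.04 kb. A further peak of 2.34 kb (fold 9.38) had its summit at −3.56 kb, within the lincRNA gene Gm29824, which starts at −2.16 kb on the other strand. A peak of 568 bp at −6.97 kb (fold 4.08) in the same lincRNA gene was in both single-replicate lists.

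Inside Tbx20 an intron held a peak of 3.92 kb (fold 7.81, chr9:24748016-24751936) with its summit at 23.73 kb. Of the 20 peaks over 2.5 kb from any start around the members, it was the widest. The summit stood at 23.73 kb in replicate 2 and at 23.76 kb in replicate 1. In replicate 2 it was 3.98 kb wide with a fold of 9.46. In replicate 1 it was split into peaks of 2.15, 0.544 and 0.204 kb, the first with a fold of 6.62. A match to the TEAD consensus GGAATG and one to the GATA consensus AGATAA, both on the reverse strand, fall within the 200 bases around its summit (chr9:24750469-24750668, minus strand, matches in capitals).
Tbx20 intron peak: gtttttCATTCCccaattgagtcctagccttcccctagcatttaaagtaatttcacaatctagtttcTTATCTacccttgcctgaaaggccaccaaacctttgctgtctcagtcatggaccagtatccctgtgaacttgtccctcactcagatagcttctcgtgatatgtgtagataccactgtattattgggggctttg
The 200 bases around the summit held the TEAD consensus in 10.5% and the GATA consensus in 8.55% of all replicated peaks, on either strand. The other 3 peaks inside Tbx20, at 10.7, 11.1 and 13.0 kb, were 262 to 426 bp wide with folds of 2.94 to 3.61. The peak at 10.7 kb was in both single-replicate lists, that at 11.1 kb in replicate 2 alone, and that at 13.0 kb in neither.

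**Figure D3:**
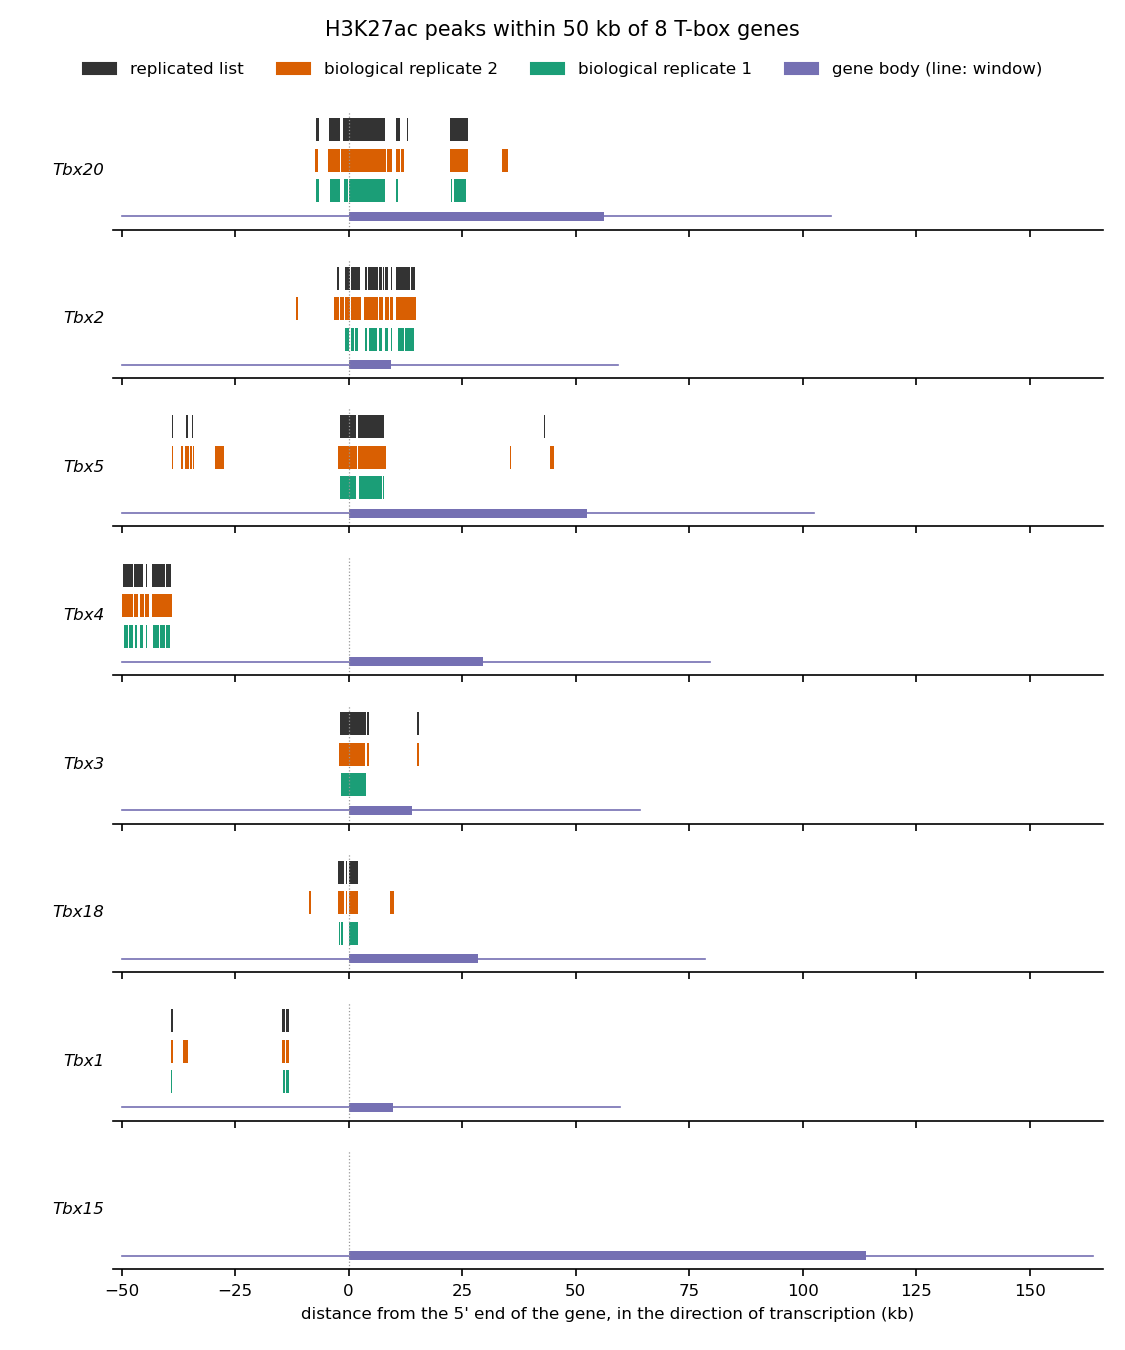
Peaks within 50 kb of each T-box gene against distance from its 5′ end in kb, for the replicated list and for biological replicates 2 and 1; the purple bar is the gene body. Peaks lie at the starts of Tbx20, Tbx2, Tbx5, Tbx3 and Tbx18, and at Tbx2 they run along the gene and past its end. Those of Tbx4 are peaks of Tbx2, and Tbx15 has none.

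Tbx5, mutated in Holt-Oram syndrome in humans, was acetylated along its 5′ part (chromosome 5, from 119832668 to 119885219, plus strand). The peak at its outermost start was 2.93 kb wide (fold 7.30, summit at −1.10 kb). The wider and stronger peak lay inside the gene, 5.57 kb wide with a fold of 14.1 (chr5:119834827-119840399). Its summit, in coding sequence, stood at 4.36 kb, and 0.877 kb past an internal annotated start. In replicate 2 this peak was 5.98 kb wide with a fold of 19.5. In replicate 1 its largest part was 4.08 kb wide with a fold of 11.0, and peaks of 1.01 and 0.227 kb followed it. Between both lay an intron peak of 638 bp at 1.21 kb (fold 5.12). Beyond these, Tbx5 had 3 weak peaks between −38.8 and −34.4 kb, with folds of 2.46 to 3.60, all in replicate 2 and none in replicate 1. The last peak, at 43.1 kb in an intron (197 bp, fold 3.03), was in neither single-replicate list.

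The repressors Tbx3 and Tbx2 differed in the shape of their called peaks. Tbx3 (chromosome 5, from 119670669 to 119684724, plus strand) had a single wide peak of 5.84 kb at its start (fold 16.2, chr5:119668688-119674530), at percentile 97.3 of promoter peak widths. It was 5.69 kb wide (fold 21.3) in replicate 2 and 5.39 kb wide (fold 9.54) in replicate 1, where it was the only peak of the window. Weaker peaks of 452 bp at 4.14 kb (fold 3.34) and 601 bp at 15.5 kb (fold 3.16) were held by replicate 2 and not by replicate 1. Tbx2 (chromosome 11, from 85832551 to 85841948, plus strand) had no single wide peak at its start. There the peaks were 1269 bp (fold 8.53, summit at −0.149 kb) and 1498 bp (fold 5.69, summit at 920 bp), the wider at percentile 52.5. They nearly adjoin (chr11:85831681-85832949 and chr11:85833073-85834570), and the percentile is that of the wider peak alone. Whether the gap between them lies in the signal or in the peak calling was not tested. The 12 peaks of Tbx2 followed each other from −2.48 to 13.8 kb and covered 70.0% of the gene body, 83.0% in replicate 2 and 52.8% in replicate 1. For Tbx3 the body was covered to 30.7%, for Tbx20 to 23.1%, for Tbx5 to 14.0% and for Tbx18 to 7.16%. The widest peak of Tbx2 lay past its end, at 12.0 kb, with a width of 3.01 kb and a fold of 7.71 (chr11:85843035-85846039). In replicate 2 it was part of a peak of 4.45 kb (fold 8.62), and in replicate 1 it was split into 1.32 kb (fold 8.13) and 1.11 kb (fold 4.63). It lies over 2.5 kb from any annotated start.

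Tbx18 (chromosome 9, from 87702800 to 87731260, minus strand) had 3 peaks in the replicated list, all around its start. The widest was 2.05 kb (fold 7.58) with its summit at 1.03 kb in an intron, 2.17 kb wide (fold 9.29) in replicate 2 and 2.00 kb wide (fold 5.88) in replicate 1. A peak of 1.29 kb followed at −1.98 kb (fold 5.21). Between them a peak of 251 bp at −0.373 kb (fold 4.08) was held by replicate 2 and not by replicate 1. Promoter fold placed Tbx18 at percentile 20.5 and Tbx2 at 25.2 of genes with a promoter peak, below Tbx20 at 65.0, Tbx3 at 64.4 and Tbx5 at 54.5. The value of Tbx5 is that of its internal start, and the fold at its outermost start, 7.30, was below those of Tbx2 (8.53) and Tbx18 (7.58). The number of annotated starts, which bears on how many peaks count as promoter peaks, was 5 for Tbx3, 4 for Tbx20, 3 for Tbx5, 2 for Tbx18 and 1 for Tbx2.

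The remaining members had no peak at the gene. Tbx1 (chromosome 16, from 18580979 to 18590671, minus strand) is a gene of the interval lost in DiGeorge syndrome in humans. Its gene body held no peak in any of the 4 lists. Both nearest peaks, 689 bp at −13.5 kb (fold 7.49) and 618 bp at −14.1 kb (fold 6.26), lie within the lincRNA gene 4930588K23Rik over 2.5 kb from any start. They were held by both single-replicate lists. The remaining peak of its window was at the start of Sept5, at −39.1 kb. Tbx15 (chromosome 3, from 99240381 to 99354259, plus strand), a close relative of Tbx18, had no peak in its window in any of the 4 lists. The neighbouring Wars2, a tRNA synthetase gene of mitochondria that starts at −99.3 kb, had a peak at its own start.

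The neighbouring pairs differed in whether the other gene was acetylated. Tbx3 and Tbx5 lie 148 kb apart on chromosome 5, and both were acetylated at their starts. Acetylated length was 6.90 kb for Tbx3 and 10.4 kb for Tbx5, a difference of −3.54 kb for Tbx3 minus Tbx5. It was −8.46 kb in replicate 2 and −3.40 kb in replicate 1, the same sign with an SD of 3.58 kb over the pools. That SD is as large as the difference in the replicated list, which lies near the replicate 1 value. Peaks covered 2.49% of the sequence between the genes (3.69 kb in 5 peaks), and the longest stretch without a peak there was 107 kb. Between these genes replicate 2 held 9 peaks over 7.10 kb and replicate 1 held 1 over 1.98 kb, so the covered length there depends on the pool. Each of these counts includes the peak at the Tbx5 start, which reaches before the gene. In replicate 1 that peak was the only one.

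Tbx2 and Tbx4 lie 44.5 kb apart on chromosome 11. Tbx2 was covered along its body, while Tbx4 had no peak over its body in any of the 4 lists. Acetylated length was 12.2 kb for Tbx2 and 8.34 kb for Tbx4, a difference of 3.84 kb for Tbx2 minus Tbx4 (6.51 kb in replicate 2 and 2.51 kb in replicate 1, SD 2.83 kb). All 8.34 kb counted for Tbx4 lay in the 55.5 kb that the windows share, in 8 peaks in or just past Tbx2. The peak nearest to Tbx4 had its summit at −40.0 kb from its start, and 39.2 kb before the gene held no peak. Given to the nearest member, these peaks leave 12.2 kb for Tbx2 and 0 kb for Tbx4.

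**Figure D4:**
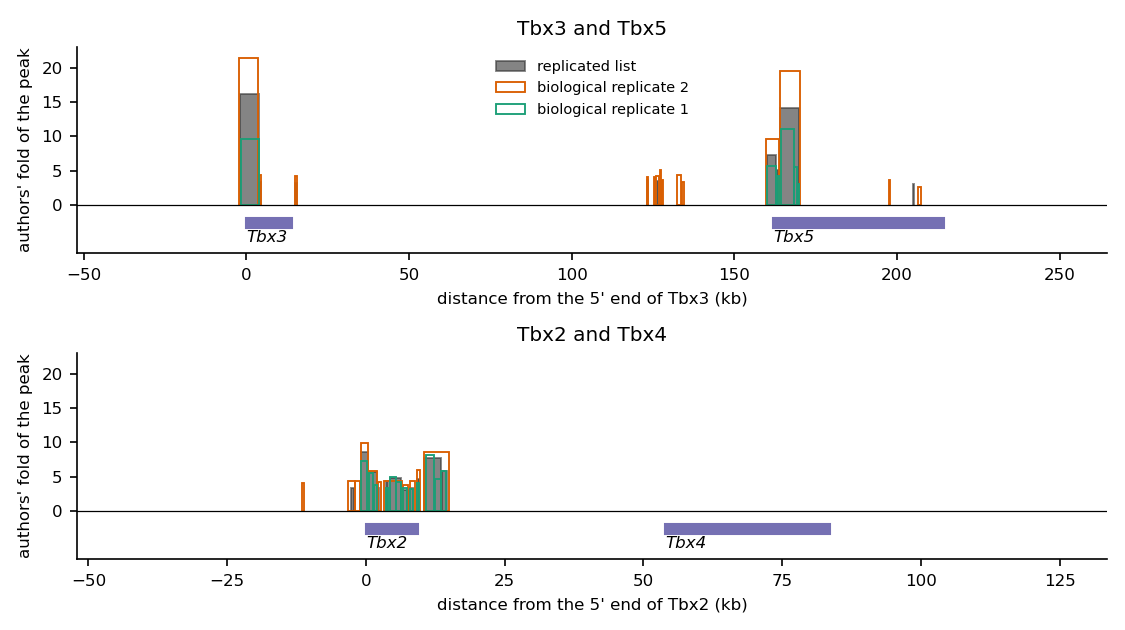
The authors' fold of each peak (height, each within its own list) against distance from the 5′ end of Tbx3 or Tbx2 in kb, for the replicated list and biological replicates 2 and 1; purple bars are the gene bodies. Both Tbx3 and Tbx5 carry peaks at their starts, whereas the peaks at Tbx2 end before Tbx4.

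Each acetylated member had a noncoding or unclassified gene that starts close by on the opposite strand. These were Gm29824 at −2.16 kb from Tbx20, Gm43050 at −0.748 kb from Tbx5, Tbx3os1 at 0.696 kb from Tbx3, 2610027K06Rik at −0.328 kb from Tbx2 and D030062O11Rik at 1.98 kb from Tbx18. Each had a peak at its own 5′ end. Of the 1504 protein-coding genes with a promoter peak and such a neighbour within 2.5 kb, 1416 also had a peak there. A long noncoding or unclassified gene on the opposite strand that starts within 2.5 kb of the 5′ end was thus found at 5 of 5 members with a promoter peak, against 12.1% of the 12468 protein-coding genes with one. Among members without a promoter peak it was found at 1 of 3, against 5.12% of such genes. Over all members it was 6 of 8, against 9.07% of all protein-coding genes. This feature was chosen after its values were seen, and the differences were not tested. Tbx1 also had one, 4930588K23Rik at −1.32 kb, with no peak there. H3K27ac has no strand, so at a peak near both starts acetylation of a member and of such a neighbour cannot be told apart. The start of Gm29824 lay in a separate peak of 2.34 kb, but the peak at the Tbx20 start also reached within 1 kb of it.

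The peaks that the pools did not share were weak ones. Of the 35 peaks, 23 (65.7%, 95% exact binomial interval 47.8% to 80.9%, counting error only) had an overlapping peak in each single-replicate list, against 73.0% of all replicated peaks. Replicate 2 alone held 10, replicate 1 alone 0, and 2 were in neither. The peaks missing from replicate 1 had folds of at most 4.08 and widths of at most 601 bp. Over all replicated peaks 17.6% were in replicate 2 alone and 3.56% in replicate 1 alone. The median width was 601 bp for the 35 peaks and 693 bp for all peaks, and the median fold 4.36 and 4.55. By summit, 14 of the peaks lay before a member, 11 in introns, 5 in coding sequence, 2 in UTRs and 3 past the gene.

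The T-box half-site GGTGTGA, on either strand, was searched as the sequence that members bind themselves. Inside the 35 peaks it occurred 6 times in 5 peaks (14.3%, against 13.0% of all peaks), or 1.15 times per 10 kb of peak, against 1.43 per 10 kb over all peaks. Each match is shown with 30 bases to either side, on the strand that reads GGTGTGA, in capitals. They lie at Tbx20 (chr9:24748777-24748843, minus strand, and chr9:24768792-24768858, plus strand), at Tbx5 (chr5:119834169-119834235, minus strand), at Tbx3 (chr5:119669151-119669217, minus strand, and chr5:119672867-119672933, plus strand) and past Tbx2 (chr11:85843957-85844023, plus strand).
Tbx20 intron at 25.5 kb: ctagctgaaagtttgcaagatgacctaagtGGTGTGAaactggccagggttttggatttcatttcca
Tbx20 intron at 5.48 kb: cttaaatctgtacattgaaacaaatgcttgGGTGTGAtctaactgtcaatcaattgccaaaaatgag
Tbx5 intron at 1.53 kb: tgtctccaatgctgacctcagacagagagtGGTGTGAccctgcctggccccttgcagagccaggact
Tbx3 upstream at −1.49 kb: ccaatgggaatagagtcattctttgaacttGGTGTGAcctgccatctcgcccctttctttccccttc
Tbx3 intron at 2.23 kb: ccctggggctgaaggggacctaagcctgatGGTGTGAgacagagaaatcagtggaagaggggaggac
Tbx2 downstream at 11.4 kb: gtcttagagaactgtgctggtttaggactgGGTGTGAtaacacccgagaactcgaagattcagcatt
The matches stood 319 bp (Tbx5) to 5290 bp (Tbx20, 5.48 kb) from the summit of their peak. Such a match is a string of letters and does not show that a T-box protein was bound.

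Within the 500 bp around each summit the half-site was present at 2 of 35 peaks (5.71%, exact binomial interval 0.700% to 19.2%, counting error only), against 6.49% of all peaks. This interval, like that for the peaks shared by the pools, treats peaks as independent, although many lie side by side at the same gene. Both matches lie at weak Tbx5 peaks, at −35.8 and 43.1 kb, and 170 and 100 bp outside the edge of the peak. The consensus of GATA factors, AGATAA, stood at 8 peaks (22.9%, against 21.3% of all), that of NKX factors, TNAAGTG, at 8 (22.9%, against 22.9%), that of TEAD factors at 6 (17.1%, against 25.2%) and that of MEF2 factors, TAAAAATA, at 2 (5.71%, against 7.34%). None of these differences was tested. The peaks around the members had a median of 55.4% GC, against 49.0% over all peaks.

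**Figure D5:**
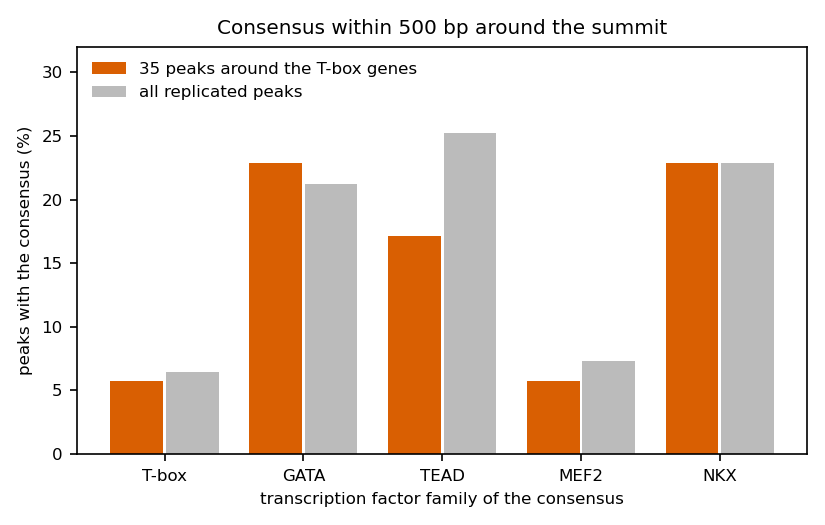
Percent of peaks with each consensus within 500 bp around the summit, for the 35 peaks around the T-box genes (left bars) and all replicated peaks (right bars). The bars of a pair lie within 2 percentage points of each other except for TEAD, 17.1% against 25.2%.

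Genes of the same family and pathway gave these values in the same list. Of 9 other T-box genes, Mga and Tbx6 had a promoter peak, and the median acetylated length was 4.56 kb. T (Brachyury), Eomes, Tbr1, Tbx10, Tbx19, Tbx21 and Tbx22 had none. Of these 9 genes, Tbx6 (17.6 kb) was above Tbx20 (17.2 kb) in acetylated length, and all others were below Tbx20. Tbx6 was also above Tbx20 in replicate 1 (16.3 against 15.1 kb) but below it in replicate 2 (19.3 against 21.2 kb). Tbx10 (14.0 kb) was above Tbx2 (12.2 kb), but not in replicate 2 (15.7 against 16.0 kb). At the promoter, peaks of Tbx6 reached a width of 0.866 kb and a fold of 4.52, against 9.36 kb and 16.3 for Tbx20. Acetylated length counts every peak in the window, so that of Tbx10, without a promoter peak, lies away from its starts. Which genes the peaks around Tbx6 and Tbx10 belong to was not tested. Of 14 partner factors, 11 had a promoter peak, with a median of 27.7 kb, and Gata5, Hand1 and Isl1 had none. Tbx20, the highest member at 17.2 kb, was acetylated over less sequence than Gata4 (48.1 kb) and Nkx2-5 (26.95 kb), whose proteins bind TBX5. Of 11 heart genes known as T-box targets, 9 had a promoter peak, with a median of 14.3 kb, and Hcn4 and Bmp10 had none. Nppa (14.3 kb), the gene of atrial natriuretic peptide, and Gja5 (7.09 kb), a connexin gene, are activated by TBX5 in mice. Their promoter peaks reached 0.938 kb with a fold of 3.70 (Nppa) and 1.12 kb with a fold of 5.21 (Gja5).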

How the data were processed

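The 4 libraries are H3K27ac chromatin immunoprecipitations from mouse heart, sequenced. The deposited data are 4 peak lists on mm10, per the labels: replicated peaks of both biological replicates (63061, the main list), pseudoreplicated peaks of both (63494), and of replicate 1 (55831) and replicate 2 (61333) alone. Their values are the authors': a ratio (fold) for each peak, and −log10 p and −log10 q as deposited. For some peaks the folds of several lists are given side by side. Each belongs to its own list, and they were not compared between lists. The tools of alignment and peak calling were not given in the sources used here, and no values per library were used. Reads of a CAST/EiJ hybrid placed on mm10 may be lost where the strains differ, which was not tested.

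Genes and starts came from GENCODE M21 on GRCm38 (protein-coding genes off the mitochondrial genome), and sequence from GRCm38.p6. No peak ended past a chromosome. A promoter peak overlaps 1 kb to either side of a start, acetylated length is clipped at the window edges, and overlap means 1 bp. Calculations used Python 3.11.15 with pandas 2.3.3 and pysam 0.24.0 and were tested on simulated intervals. The named genes are all 8 members, their neighbours and the lists of partners, targets and other T-box genes, of which 1 partner is not reported here. The members and lists were chosen with earlier results of these data known. Alternatives varied the list, promoter window, q, fold, flank and assignment of peaks.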

Additional observations from a re-analysis of the deposited data

How the results depend on the processing

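The 5 members with a promoter peak stayed 5 under each of the 7 alternatives tried for that count. The median acetylated length (7.62 kb) was 5.25 kb with flanks of 25 kb and also when each peak went to the nearest member. Over the single-replicate lists it ran from 6.01 to 8.19 kb. Tbx3 minus Tbx5 (−3.54 kb) ran from −8.46 to −3.40 kb over these lists and kept its sign under each alternative. Tbx2 minus Tbx4 (3.84 kb) ran from 2.51 to 6.51 kb, and was 12.2 kb with flanks of 25 kb or with peaks given to the nearest member, since all of the length of Tbx4 is shared with Tbx2. The share of peaks in both single-replicate lists fell to 40.0% with a reciprocal overlap of 50%, and the share with a half-site was 0% with 300 bp around the summit, where it was 3.93% over all peaks. The search of whole peaks for the half-site was added after the data were seen. Of 72 values of single members under an alternative, 63 moved by no more than the SD between the pools and 9 moved further, among them Tbx15, with 1.14 kb at flanks of 100 kb. Part of this agreement is built in, since that SD comes from the single-replicate lists, which are also among the alternatives. Tbx15 stayed at 0 kb under every other alternative. No paired analysis was possible because no result comes from a test; the differences of both gene pairs are given within each pool. The number of reads is unknown, so how far depth limits the weak peaks was not tested.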
